A study of Saccharomyces cerevisiae with 12 samples.

Results

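The comparison described here sets yeast grown for 20 h with 4 µg/mL PeAfpA (condition 4) against yeast grown for the same time with 1 µg/mL (condition 2). PeAfpA is a small secreted antifungal protein of the fungus Penicillium expansum, and the study asked which genes of Saccharomyces cerevisiae respond to it. RNA-seq gene counts were made from 12 libraries, 3 for each of 4 conditions, of which the 6 libraries named 2A, 2B, 2C, 4A, 4B and 4C enter here and were chosen by their labels alone. No library without PeAfpA enters, so every value is a difference between the higher and the lower dose. All 6 come from BY4741, a haploid laboratory strain of mating type a with deletions in HIS3, LEU2, MET17 and URA3. The yeast was grown in flasks at 30 °C and 120 rpm in YPD, a medium of yeast, peptone and dextrose (glucose). The labels give the strength of the YPD as 5%. Of the 6600 features in the count table, 5890 passed the expression filter, a mean over the 6 libraries of at least 1 TPM, a read share corrected for coding length, or 1 CPM, the share uncorrected, where no coding length was known. Total counts per library lay between 7946071 and 10045702.

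Budding yeast prefers glucose and, while it ferments, keeps the genes for other carbon sources shut off. When glucose runs out it switches to the ethanol and acetate it has made: alcohol dehydrogenase, acetyl-CoA synthetase, the glyoxylate cycle and gluconeogenesis are then induced, largely through the activators Adr1, Cat8 and Sip4. Acetyl units made outside mitochondria are carried in as acetylcarnitine. The cell wall is a layer of glucan, chitin and mannoproteins that is remodelled as the bud grows, under a kinase cascade that ends in Slt2.

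LEU2, URA3 and MET17, deleted in the strain, had 0 counts in all 6 libraries, and HIS3 kept 381 to 529 counts. All 9 mating genes of a cells passed the expression filter, but so did all 4 alpha-cell genes, so passing it does not tell the mating type. Summed counts per library were 6383 to 18609 for the a-cell genes and 730 to 1367 for the alpha-cell genes. The labels call the source mycelia, a term for filaments that no marker here tests. One library did not sit with its replicates. On the first principal component of log2 CPM, with 74.4% of the variance, 2B and 2C scored -40.4 and -47.5, the 3 libraries of condition 4 scored 16.5 to 51.5, and 2A scored -6.47, between them. The Euclidean distance of 2A to 4A in log2 CPM (46.2) was smaller than its distances to 2B (49.7) and 2C (59.1), against 27.1 between 2B and 2C. Within condition 4, 4C lay 53.9 from 4A, more than the 23.1 between 4A and 4B. Calls that turn on 2A are therefore given with and without it. Values per library follow the order 2A, 2B, 2C for condition 2 and 4A, 4B, 4C for condition 4. Culture density is not in the labels, and in bulk RNA fewer cells of a kind and less RNA per cell cannot be told apart.

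Raising the dose from 1 to 4 µg/mL changed 471 of the 5890 genes (8.00%) at an adjusted p under 0.05 in edgeR's quasi-likelihood test with Benjamini-Hochberg adjustment. Falls outnumbered rises: 341 genes (5.79%) were downregulated and 130 (2.21%) upregulated. Falls were also larger, with a median log2 fold change of -1.51 against a median size of 1.03 among the upregulated differentially expressed genes (DEGs), while the median over all genes was -0.01. In all 471 DEGs the 3 libraries of one condition lay wholly above the 3 of the other. The same held for 1052 of all genes on the higher side (17.9%) and 1220 on the lower side (20.7%). The count of DEGs moved with the libraries used. Without 2A it was 2033 (34.5%), with 921 up (15.6%) and 1112 down (18.9%), and all 471 DEGs were among them. Without 2B it was 93, without 2C 128, without 4A 316, without 4B 56 and without 4C 212. The plot of all genes shows the long lower tail.

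**Figure D1:**
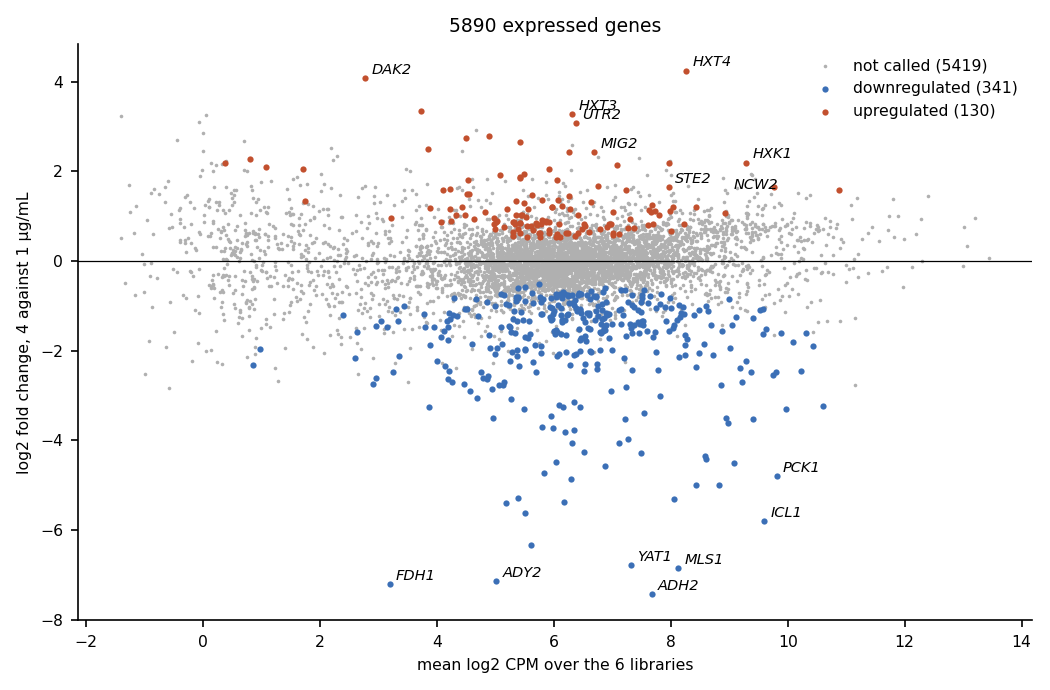
Log2 fold change of 4 against 1 µg/mL PeAfpA (vertical axis) against mean log2 CPM over the 6 libraries (horizontal axis) for 5890 expressed genes, 1 point each. Downregulated DEGs (341) reach -7.43 at ADH2 and upregulated DEGs (130) reach 4.24 at HXT4.

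The deepest falls were in the genes that let yeast live on ethanol and acetate. ADH2, the alcohol dehydrogenase that consumes ethanol, was the most reduced of all DEGs. Its normalised read counts were 26207, 20765 and 28554 in condition 2 against 133.7, 94.96 and 211.3 in condition 4. The conditions lay orders of magnitude apart, and 2A sat between its replicates (log2 fold change -7.43 ± 0.47 (SE, n = 3 per condition), adjusted p = 0.000682). Of 18 genes of the glyoxylate cycle, gluconeogenesis and acetate uptake, 14 were downregulated (77.8% against 5.79% of all genes), none was upregulated, and all 18 had lower counts in every library of condition 4 than in any of condition 2. The median log2 fold change of these 18 genes was -3.53. Their summed level fell from 17216, 20974 and 22889 TPM at the lower dose to 2952, 1881 and 1043 TPM at the higher.

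ICL1 and MLS1 encode isocitrate lyase and malate synthase, the enzymes particular to the glyoxylate cycle. ICL1 had 64317, 47754 and 53359 normalised counts at 1 µg/mL and 1468, 857.3 and 629 at 4 µg/mL. MLS1 had 23855, 33940 and 36912 in condition 2 and 566.5, 149.5 and 107.5 in condition 4. Both genes were well expressed at the lower dose and fell to a small fraction of it, by -5.81 ± 0.51 and -6.84 ± 0.80 on the log2 scale. Ady2, which brings acetate into the cell, and Acs1, which activates it to acetyl-CoA, belong to the same route. The gene ADY2 went from 1719, 3810 and 5234 counts to 26.93, 20.22 and 29.31 (-7.14 ± 0.50, adjusted p = 0.000773). ACS1 went from 13123, 18016 and 20849 to 733.7, 444.9 and 125.8 (-5.31 ± 0.68, adjusted p = 0.00727). In each of these 4 genes the lowest library of condition 2 lay far above the highest of condition 4.

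Gluconeogenesis changed with them, though less evenly within condition 4. PCK1, phosphoenolpyruvate carboxykinase, had 59911, 47706 and 57179 counts in condition 2 and 4106, 1464 and 321.2 in condition 4. FBP1, fructose-1,6-bisphosphatase, had 21159, 17411 and 19489 and then 1861, 795.8 and 184.4. In both, 4C was several times lower than 4A, and the standard errors were wide (log2 fold changes of -4.81 ± 0.92 and -4.35 ± 0.79, adjusted p = 0.0254 and 0.022). Both lost the call without 2B, 2C or 4B. In 13 of the 18 genes 4C was the lowest of the 3 libraries of condition 4, and in 15 of them 4A was the highest. The peroxisomal citrate synthase gene CIT2 and the lactate permease gene JEN1 fell as well, with log2 fold changes of -3.53 ± 0.33 and -4.51 ± 0.53. Of the activators, SIP4 was downregulated (598.5, 534.4 and 487.3 against 148.6, 129.3 and 142.9 counts, -1.95 ± 0.15). For CAT8 the estimate was -1.34 ± 0.35 (adjusted p = 0.0567, and 0.042 without 2A) and for ADR1 -0.83 ± 0.23 (adjusted p = 0.0655), neither past the threshold. The number of downregulated genes in this list was 17 without 2A, 10 without 2B, 10 without 2C, 15 without 4A, 6 without 4B and 15 without 4C.

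Genes of this route are known to carry a carbon source-responsive element, the binding site of Cat8 and Sip4. Its loose form, the letters CC, any 2 bases, T, any 3 bases and CCG, was searched on both strands of the 600 bases before each start codon in the R64 genome sequence. It was present before 10 of these 18 genes (55.6%), against 493 of 5652 genes tested (8.72%), 74 of 339 downregulated DEGs (21.8%) and 6 of 129 upregulated DEGs (4.65%). The stretches around the match nearest the start codon are shown for the 8 of 14 downregulated members that hold one. MDH2 and PYC1, which were not called, hold one as well. Each is written 5′ to 3′ on the strand of its gene with the match in capitals. Before ADY2 and PCK1 the match lies on the opposite strand and appears as its reverse complement.
ACS1, chrI:45363-45413, minus strand: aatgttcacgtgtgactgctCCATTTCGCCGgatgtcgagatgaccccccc
ADY2, chrIII:133573-133623, minus strand: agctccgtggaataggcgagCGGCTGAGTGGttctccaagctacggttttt
ICL1, chrV:287282-287332, minus strand: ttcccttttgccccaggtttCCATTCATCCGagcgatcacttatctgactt
IDP2, chrXII:504268-504318, plus strand: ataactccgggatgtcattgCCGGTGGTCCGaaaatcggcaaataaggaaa
MLS1, chrXIV:405880-405930, plus strand: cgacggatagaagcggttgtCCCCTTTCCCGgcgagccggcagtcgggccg
PCK1, chrXI:630770-630820, plus strand: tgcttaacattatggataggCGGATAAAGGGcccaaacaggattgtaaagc
SFC1, chrX:609262-609312, plus strand: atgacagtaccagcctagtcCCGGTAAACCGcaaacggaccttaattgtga
SIP4, chrX:265631-265681, plus strand: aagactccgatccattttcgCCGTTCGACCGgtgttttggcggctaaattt
The matches end between 264 and 480 bases before the start codon. A match is a description of these letters, not evidence of binding in these cultures.

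The carnitine shuttle and the oxidation of fatty acids fell alongside. Of 20 genes, 16 were downregulated (80.0% against 5.79% of all genes) and none was upregulated, with a median log2 fold change of -2.15. YAT1, a carnitine acetyltransferase on the outer face of mitochondria, had 5460, 20002 and 27136 counts in condition 2 and 237.8, 152.1 and 87.94 in condition 4. Here 2A was already well under its replicates, yet far above all of condition 4 (-6.78 ± 0.77, adjusted p = 0.00451). YAT2, the cytosolic form, had 11966, 21320 and 22145 counts against 778.3, 547.8 and 421.4. CRC1, the mitochondrial carrier for acetylcarnitine, had 2458, 5216 and 6309 against 172.7, 109 and 51.3. Both were separated by more than an order of magnitude (-4.99 ± 0.42 and -5.38 ± 0.56), and CAT2, the enzyme of peroxisomes and mitochondria, followed (-4.05 ± 0.46). AGP2, a plasma membrane protein that takes up carnitine and regulates polyamine uptake, fell less, from 400.1, 950.4 and 1036 to 207.1, 166.2 and 130.7 counts (-2.24 ± 0.37, adjusted p = 0.016), and its call was lost without 2B, 2C, 4B or 4C.

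In the peroxisome, the catalase gene CTA1 went from 6814, 4454 and 5788 to 460.7, 309.5 and 313.9 counts (-3.98 ± 0.28, adjusted p = 0.000773), with 2A the highest of the 6. The thiolase gene POT1 (-3.80 ± 0.64) and FOX2, the multifunctional enzyme of the cycle (-3.01 ± 0.45), fell as well. POX1, the acyl-CoA oxidase, differed by a similar amount (-2.25 ± 0.65) but its condition 2 libraries ranged from 1793 to 6817 counts, with 2A the highest, and it did not pass (adjusted p = 0.0676). OAF1, an oleate-responsive activator, differed least in this list (-0.35 ± 0.15, adjusted p = 0.148), while its partner PIP2 fell from 1631, 1414 and 1233 to 895.3, 726.3 and 511.8 counts. Leaving out a library gave 16 downregulated members without 2A, 7 without 2B, 8 without 2C, 14 without 4A, 5 without 4B and 11 without 4C. The carbon source-responsive letters were found before 5 of the 20 genes (25%), against 8.72% of all genes tested and 21.8% of downregulated DEGs. Lists with few or no calls had similar or higher shares, such as phosphate genes (23.8%) and histones (40%).

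**Figure D2:**
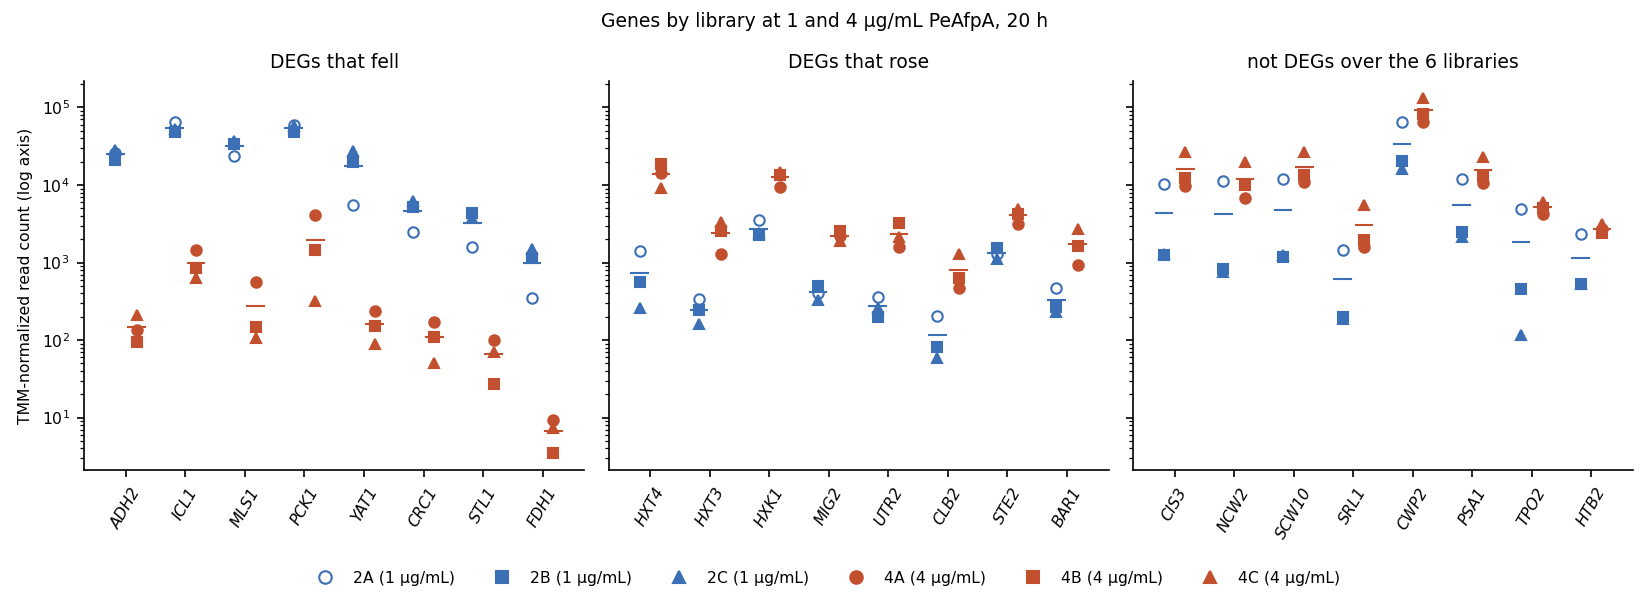
TMM-normalised read counts (log axis) of 24 genes in each library, blue for 1 µg/mL (2A open) and red for 4 µg/mL, with a bar at each mean of 3. In the 16 DEGs the conditions do not overlap, and in the 8 genes on the right 2A lies with the libraries at 4 µg/mL while 2B and 2C lie below.

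The tricarboxylic acid cycle changed in part: 4 of 17 genes were downregulated (23.5% against 5.79% of all genes), none was upregulated, and the median was -1.05. CIT3, the citrate and methylcitrate synthase of mitochondria, fell most, from 1459, 3478 and 4155 to 186.7, 118.7 and 100.2 counts (-4.48 ± 0.46, adjusted p = 0.00316). CIT1, the main mitochondrial citrate synthase, went from 21740, 19345 and 21369 to 9291, 6798 and 4478 (-1.60 ± 0.34, adjusted p = 0.0358). FUM1, fumarase, and KGD1, of the alpha-ketoglutarate dehydrogenase complex, were the other two. In 15 of the 17 genes 4C was the lowest library of condition 4. With a library left out the count was 7 without 2A, 5 without 4A and 1 without 2B, 2C, 4B or 4C. Of 37 genes of the respiratory chain and ATP synthase, COX5A and the external NADH dehydrogenase gene NDE2 were downregulated and COX5B was upregulated (8.11%, near the 8.00% of all genes). The pair of alternative subunits of cytochrome c oxidase went opposite ways. COX5A, the aerobic form, had 9982, 8844 and 10919 counts in condition 2 and 5595, 3959 and 2813 in condition 4 (-1.27 ± 0.31, adjusted p = 0.0486, lost without 2B, 2C, 4B or 4C). COX5B, the hypoxic form, had 387.2, 374.1 and 401.2 against 927.8, 1189 and 858.7 (1.36 ± 0.16, adjusted p = 0.00483), a call kept with any library left out.

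Glycerol genes split by direction. STL1, the glycerol-proton symporter, went from 1567, 4309 and 3716 counts to 99.38, 27.26 and 69.62 (-5.61 ± 0.59, adjusted p = 0.00339). GUT1 and GUT2, which phosphorylate and oxidise glycerol, fell with log2 fold changes of -2.09 ± 0.31 and -1.31 ± 0.22, and the glycerol 3-phosphatase gene GPP1 went from 10636, 17865 and 17810 to 5592, 4842 and 4851 counts. DAK2, a dihydroxyacetone kinase, rose from 21.57, 16.03 and 8.721 to 277.7, 383.4 and 124.6 counts (4.07 ± 0.52, adjusted p = 0.00697). Of 11 genes in this list 4 were down and 1 was up, against 5.79% down and 2.21% up of all genes. Without 2B, 2C or 4B the downregulated members were 1, 2 and 1, and DAK2 and STL1 kept their calls with any library left out.

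Other large falls lay outside these routes. FDH1, NAD-dependent formate dehydrogenase, went from 350.5, 1159 and 1490 counts to 9.288, 3.517 and 7.329 (-7.21 ± 0.70, adjusted p = 0.00287), although reads of its near-identical relatives FDH2 and YPL276W may be assigned among them. DPA10 had the smallest adjusted p of all genes, 5.15e-05, with 4738, 3513 and 3664 counts against 54.8, 47.48 and 43.97. SPG1, linked to survival in stationary phase, fell from 1121, 2640 and 3259 to 78.02, 57.15 and 28.09, and RGI2, a respiratory growth gene, from 4219, 1171 and 2926 to 125.4, 55.4 and 28.09. The replicates of DPA10 were far tighter than those of RGI2, whose SE was 0.68 against 0.23. SSA3, a stress-induced Hsp70, fell from 7040, 21019 and 23790 to 1567, 1410 and 1257, and HSP30, a plasma membrane heat shock protein, from 4122, 3152 and 4070 to 649.2, 658.6 and 298. SSA3 and HSP30 were the only downregulated members of 28 heat shock and chaperone genes, DDR48 was the only one upregulated (10.7% called in all), and HSP12, the most expressed, had an estimate of -0.11 ± 0.48 (adjusted p = 0.891). Without 2A 5 heat shock and chaperone genes were down and 1 was up. Of all genes, 8.00% were called over the 6 libraries, and 18.9% were down and 15.6% up without 2A. Without 4B, SSA3 and RGI2 were not called.

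Nutrient uptake was affected in patches. For comparison, 8.00% of all genes were called over the 6 libraries (5.79% down), and 18.9% were down and 15.6% up without 2A. Among 23 thiamine genes 7 were downregulated and none upregulated (30.4%, median -1.55). THI73, a putative transporter, had 1123, 4829 and 4304 counts against 193.2, 102 and 326.1, and THI4, which makes the thiazole ring of the vitamin, 597.5, 2884 and 2954 against 308.3, 198.7 and 186.9. In both genes 2A lay far under its replicates, and without it 19 of the 23 were down and 1 was up. Leaving out 2B, 2C, 4A, 4B or 4C instead left 1, 2, 5, 1 and 5 down. THI5, THI11, THI12 and THI13 are near-identical copies, as are SNZ2 and SNZ3, so their separate counts are uncertain. Of 20 amino acid permease genes 6 were downregulated (30.0%): PUT4, for proline, went from 9391, 12289 and 13064 to 2386, 1701 and 996.7 (-2.77 ± 0.37), and DIP5, for glutamate and aspartate, from 13942, 16721 and 13166 to 3291, 2756 and 1775 (-2.49 ± 0.32). AGP1, the most expressed, had -0.48 ± 0.35 (adjusted p = 0.354). Without 2A 9 permeases were down and 2 up, and without 2B, 2C, 4A, 4B and 4C the permeases called, all down, were 3, 4, 3, 0 and 4.

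Nitrogen metabolism had 3 calls among 29 genes, all down (10.3%, near the 8.00% of all genes). They were PUT4 and the pair of glutamate dehydrogenases GDH2 and GDH3. Without 2A 8 of the 29 were down and 1 was up, against 18.9% down and 15.6% up of all genes. GDH2, which breaks glutamate down, had 14128, 12020 and 10499 counts against 2373, 2450 and 2192, and the replicates of both conditions were close (-2.39 ± 0.24, adjusted p = 0.00316). GDH3, which makes glutamate when glucose is scarce, ranged from 17602 to 41263 in condition 2 and from 130.7 to 2201 in condition 4, with 4C the lowest (-4.99 ± 1.02, adjusted p = 0.0317, lost without 2B, 2C or 4B). The GATA letters GATAAG lay before 23 of the 29 genes (79.3%), against 26.8% of all genes tested. They lay before 31.6% of downregulated and 22.5% of upregulated DEGs. Shares in other lists varied widely, such as 61.9% of phosphate, 53.3% of autophagy and 4.55% of iron uptake genes.

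Hexose transporter genes moved both ways, with 2 of 10 up and 3 down (2.21% and 5.79% of all genes) and a median of -0.04. Leaving out a library gave 3 up and 5 down without 2A, 1 and 1 without 2B or 4B, 2 and 2 without 2C, and 2 and 3 without 4A or 4C. HXT4, a glucose transporter of intermediate to low affinity, had 1396, 562 and 261.6 counts in condition 2 and 14431, 18505 and 9129 in condition 4. It was the largest rise of all DEGs (4.24 ± 0.67, adjusted p = 0.0138), but lost its call without 2B or 4B. HXT3, a low-affinity transporter, went from 338.6, 241.4 and 162.4 to 1302, 2583 and 3304 (3.27 ± 0.41, adjusted p = 0.00672) and was called with any library left out. HXT5, found in slow-growing cells, fell from 15098, 22400 and 21864 to 4622, 3384 and 2163 (-2.55 ± 0.38), and HXT6, of high affinity, from 2009, 1765 and 2018 to 205.3, 162.7 and 73.29 (-3.70 ± 0.35). HXT5 lost its call without 2B or 4B. HXT6 and HXT7 are near-identical, and HXT7 differed the other way (0.71 ± 0.24, adjusted p = 0.0986), so the split of reads between them is uncertain. HXT2 had 2714, 392.8 and 307.4 counts in condition 2 and 1323, 3151 and 12313 in condition 4; the conditions overlapped at 2A and it was not called (adjusted p = 0.176; 0.0249 without 2A).

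Enzymes that act on the incoming sugar rose as well. HXK1, a hexokinase, had 3510, 2278 and 2421 counts against 9354, 13306 and 14893 (2.19 ± 0.31, adjusted p = 0.00985), and HXK2, the hexokinase that also acts in glucose repression, 7061, 3362 and 3664 against 11751, 13657 and 18596 (1.64 ± 0.38, adjusted p = 0.0449). MIG2, a repressor active in glucose, had 409.8, 502.4 and 327 against 2183, 2540 and 1915, and it was among the best separated rises (2.42 ± 0.21, adjusted p = 0.00186). The hexokinases were the only upregulated members of 20 genes of glycolysis and pyruvate decarboxylation. PDC6, a minor pyruvate decarboxylase, was the only one downregulated (15.0% called, against 8.00% of all genes). Their calls depended on libraries: HXK2 and PDC6 were lost on leaving out any library other than 2A, and HXK1 without 2B, 2C or 4B, while MIG2 was kept. ADH1, the fermentative alcohol dehydrogenase, had 18835, 10865 and 10665 against 32635, 39074 and 34479, an estimate of 1.40 ± 0.37 that did not pass (adjusted p = 0.0587; 0.0086 without 2A).

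**Figure D3:**
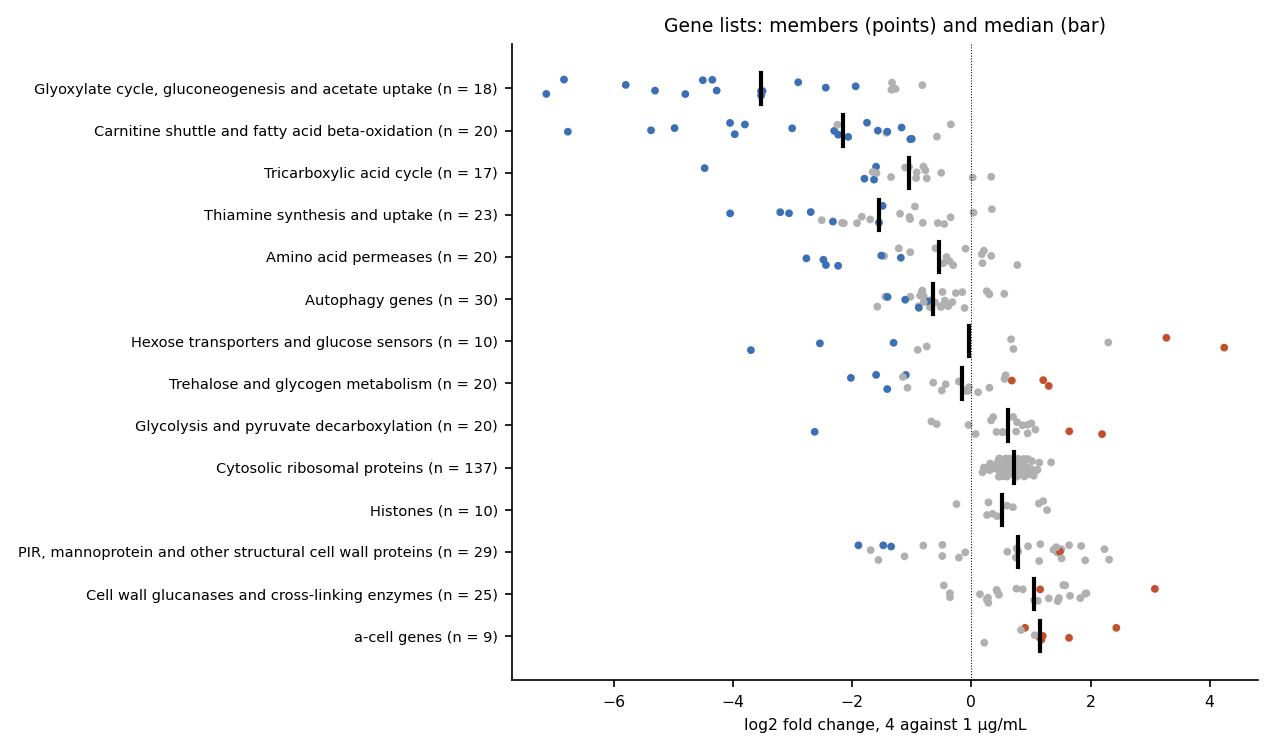
Log2 fold change of 4 against 1 µg/mL PeAfpA for the members of 14 gene lists, 1 point per gene, blue if downregulated, red if upregulated, grey if not called, with a black bar at the median. The medians run from -3.53 for the glyoxylate cycle, gluconeogenesis and acetate uptake to 1.15 for the a-cell genes.

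Most mating genes of a cells rose over the 6 libraries. Of 9 mating genes expressed in a cells, some of them in alpha cells too, 6 were upregulated (66.7% against 2.21% of all genes), none was downregulated, all 9 had positive estimates and the median was 1.15. STE2, the receptor for alpha factor, had 1282, 1553 and 1110 counts in condition 2 and 3152, 4168 and 4966 in condition 4 (1.64 ± 0.23, adjusted p = 0.0105). BAR1, the secreted protease that degrades alpha factor, had 471.3, 267.2 and 233.3 against 923.2, 1622 and 2703 (2.43 ± 0.44, adjusted p = 0.0213). MFA1, a gene of the mating pheromone a factor, had 1231, 1194 and 1251 against 2174, 2684 and 3287 (1.15 ± 0.19, adjusted p = 0.015). For STE2 and MFA1, 2A lay within the range of its replicates. The summed level of the list was 2979 TPM in 2A, lower than the 3949 and 3615 TPM of its replicates, while condition 4 had 5898, 6362 and 6617 TPM. The cell fusion gene FUS1 (1.18 ± 0.21) and the agglutinin genes AGA1 (604.6, 798.4 and 1289 counts against 313.8, 457.8 and 399 at the lower dose) and AGA2 (0.90 ± 0.21) were the other three. MFA2 and the a-factor exporter gene STE6 had estimates of 0.83 and 1.06 with an adjusted p of 0.0572 each (0.038 and 0.043 without 2A). ASG7 had 0.22 ± 0.26 (adjusted p = 0.569).

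The calls in the a-cell list were sensitive to the libraries: 8 of 9 were up without 2A, 5 without 4A, 3 without 4C, 1 without 2B and 0 without 2C or 4B. Genes of the opposite mating type give a comparison. Of 4 alpha-cell genes none was called by edgeR, 2 had an unadjusted p under 0.05, and DESeq2 over the 6 libraries called 1. Without 2A edgeR called 1 up and 1 down. STE3, the receptor for a factor, had 98.87 to 147.7 counts in condition 2 and 208 to 365.2 in condition 4 (1.17 ± 0.30, adjusted p = 0.0542; 0.0178 without 2A), a difference of the size of the a-cell median. SAG1, the alpha agglutinin, had -0.66 ± 0.29 (adjusted p = 0.163; 0.0077 without 2A). KSS1, a mitogen-activated protein kinase of the filamentation and mating pathways, was upregulated (542.5, 340.3 and 284.5 against 715.1, 834.5 and 1133, adjusted p = 0.0457, lost on leaving out any library other than 2A), the single call among 23 genes of the HOG and pheromone pathways (4.35%). STE12, the transcription factor of the mating pathway, had 0.61 ± 0.19 (adjusted p = 0.0801).

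The pheromone response element TGAAACA, the site of Ste12, lay within 600 bases before all 9 a-cell genes, against 14% of all genes tested, 20.9% of upregulated and 9.14% of downregulated DEGs. The match nearest the start codon is shown in capitals for the 4 upregulated genes with the match on their own strand, because it is what their promoters have in common. All 4 genes lie on the plus strand, written 5′ to 3′.
STE2, chrVI:82363-82409: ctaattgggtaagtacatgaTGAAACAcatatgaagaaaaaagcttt
BAR1, chrIX:322138-322184: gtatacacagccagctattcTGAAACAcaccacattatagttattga
FUS1, chrIII:71623-71669: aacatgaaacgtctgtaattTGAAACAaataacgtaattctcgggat
AGA1, chrXIV:703477-703523: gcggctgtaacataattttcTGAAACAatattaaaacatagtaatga
These 4 matches end 153 to 195 bases before the start codon. The coordinates are of the R64 assembly.

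The remaining large rises had mixed roles. INA1 went from 64.71, 25.83 and 31.61 counts to 201.5, 489.8 and 538.6 (3.34 ± 0.49, adjusted p = 0.012). UTR2, a chitin-glucan cross-linking enzyme of the cell wall, had 361.3, 198.6 and 257.3 against 1578, 3189 and 2137 (3.08 ± 0.33, adjusted p = 0.00379), and it was the only member of the wall lists called with any library left out. CLB2, the main mitotic cyclin, had 204.9, 81.06 and 58.87 against 470.9, 638.4 and 1280 (2.79 ± 0.55, adjusted p = 0.0282), with 2A above both replicates. PCL2, a cyclin of the kinase Pho85, was upregulated too (1.87 ± 0.39). CDH1, which directs mitotic cyclins to degradation, was downregulated (-0.76 ± 0.15). With CLB2 these were the only calls among 22 cell cycle regulators (13.6% against 8.00% of all genes). ARI1, an aldehyde reductase, rose from 135.9, 68.59 and 50.14 to 350.1, 539 and 822 counts, and SFG1, a regulator of surface growth, from 296.6, 115.8 and 97.02 to 742.1, 1047 and 1413. INA1, CLB2, ARI1 and SFG1 each lost the call without 2B, 2C or 4B, and CLB2 and SFG1 also without 4C. PCL2 and CDH1 lost it on leaving out any library other than 2A. Peroxide defence was split, with AHP1, a peroxiredoxin, and GPX2 upregulated (1.57 ± 0.35 and 1.35 ± 0.22) and GPX1, CTA1, CTT1 and TRX3 downregulated, of 24 genes (5 up and 7 down without 2A).

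A set of strongly expressed cell surface genes was high in condition 4 and in 2A, and low in 2B and 2C. CIS3, a PIR protein bound to wall glucan, had 10362, 1251 and 1298 counts at 1 µg/mL and 9780, 12190 and 26560 at 4 µg/mL. NCW2, a GPI-anchored wall protein, had 11136, 824.8 and 762 against 6778, 10036 and 19513. SCW10, a wall protein related to glucanases, had 11850, 1186 and 1235 against 11061, 13294 and 26314. In each of the 3 genes the conditions overlapped at 2A and at nothing else, and none was called over the 6 libraries (adjusted p = 0.176, 0.33 and 0.207). Without 2A all 3 were called (adjusted p = 0.00515, 0.0042 and 0.00347). SRL1 (1440, 197.7 and 187.5 against 1581, 1949 and 5523) did not overlap but was not called either (2.31 ± 0.89, adjusted p = 0.124; 0.00654 without 2A). CWP2, a major wall mannoprotein, PSA1, which makes GDP-mannose, and TPO2, a polyamine exporter whose near-identical copy is TPO3, showed the same arrangement of libraries, with estimates of 1.44, 1.49 and 1.48 and adjusted p from 0.174 to 0.369. Without 2A these were called too (adjusted p = 0.0136, 0.00575 and 0.00533).

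Over the 29 structural wall genes MKC7 was upregulated and FIT1, PIR5 and TIP1 were downregulated (13.8% against 8.00% of all genes), with a median of 0.79. Without 2A 15 were up and 7 down, against 15.6% up and 18.9% down of all genes. TIP1, a wall mannoprotein, fell in the fit of 6 libraries, from 18132, 28094 and 28273 to 6846, 6017 and 7126 counts (-1.90 ± 0.32, adjusted p = 0.016; lost without 2B, 2C or 4B). The summed level of the 29 genes was 57824, 26874 and 23316 TPM in condition 2 and 60154, 69540 and 91555 TPM in condition 4, so that 2A stood far above its replicates and just under 4A. Of 25 wall glucanases and cross-linking enzymes, EXG2 and UTR2 were upregulated (median 1.05). They were the only calls, and their share of 8.00% was that of all genes called. Without 2A 17 were up, against 15.6% of all genes. The kinase gene SLT2 at the end of the wall integrity pathway had 1766, 714.4 and 663.9 counts against 2282, 2663 and 3645 (1.45 ± 0.41, adjusted p = 0.0645; 0.00278 without 2A). HOG1, the kinase of the osmotic stress pathway, had 2207, 1452 and 1238 against 2322, 2398 and 3470 (0.74 ± 0.27, adjusted p = 0.11; 0.0183 without 2A).

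**Figure D4:**
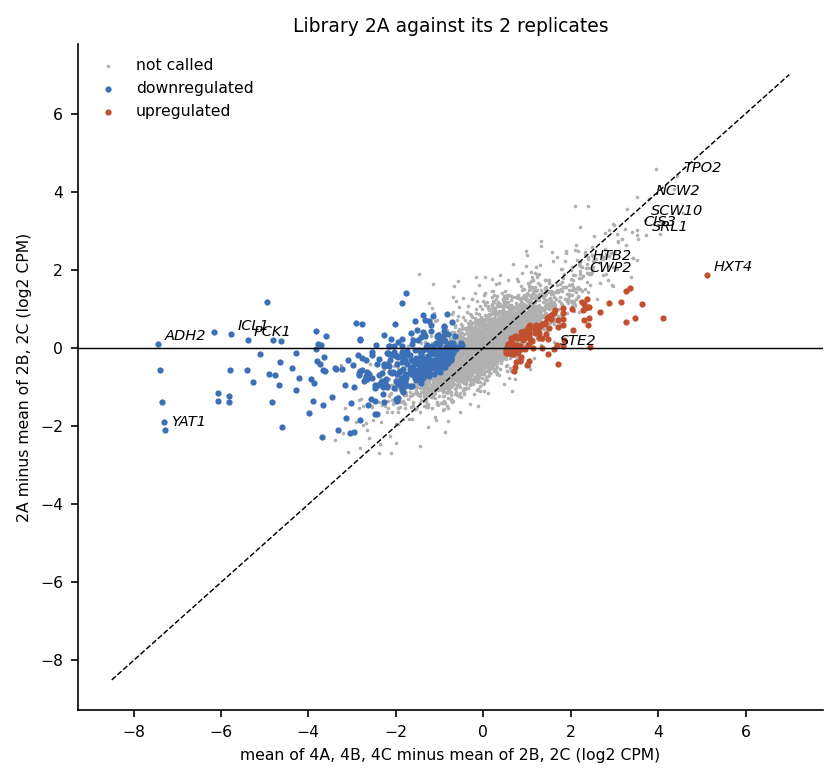
For each expressed gene, the mean of 4A, 4B and 4C (horizontal axis) and the level of 2A (vertical axis), both as differences from the mean of 2B and 2C in log2 CPM. Points on the dashed line have 2A equal to condition 4 and points on the solid line have 2A equal to 2B and 2C. Upregulated (red) and downregulated (blue) DEGs of the 6-library fit lie towards the solid line, while CIS3, NCW2, SCW10, TPO2 and SRL1 lie near the dashed one. That fit favours genes in which 2A lies near 2B and 2C, so the placement follows in part from the call.

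Histone genes were placed the same way. All 10 histone genes were higher in 2A than in 2B and 2C. Over the 6 libraries none was called by edgeR or had an unadjusted p under 0.05, DESeq2 called 0 and limma-voom 9. Over the 12 libraries edgeR called 1 and DESeq2 3. Without 2A edgeR called 8, all up. HTB2, a gene of histone H2B, had 2357, 527.3 and 527.6 counts against 2671, 2393 and 3160 (1.27 ± 0.58, adjusted p = 0.17). HTA2, of histone H2A, had 2476, 703.7 and 644.2 against 2390, 2931 and 3488 (adjusted p = 0.151). The 137 cytosolic ribosomal protein genes all had positive estimates with a median of 0.72. Over the 6 libraries edgeR called none, 17 had an unadjusted p under 0.05, DESeq2 called 2 and limma-voom 109. Over the 12 libraries edgeR called 23 and DESeq2, the authors' tool, 84, so the count depended on the tool and the libraries fitted. Without 2A edgeR called 8, all up, against 15.6% up of all genes. Their summed level was 140406, 117145 and 114281 TPM in condition 2 and 142006, 166282 and 253584 in condition 4. Here 4C was the highest library of condition 4 for all 137 genes, and the sum in 2A lay above both its replicates and just under 4A.

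The position of 2A was counted over the genes that differed at least 4-fold between condition 4 and the mean of 2B and 2C. Position was scaled so that 0 is the mean of 2B and 2C and 1 the mean of condition 4. Of 148 genes higher at 4 µg/mL, 2A lay above 0.75 in 80, between 0.25 and 0.75 in 62 and below 0.25 in 6, and 23 were DEGs. Of 173 genes lower at 4 µg/mL 2A lay nearer its replicates: it was below 0.25 in 80, between 0.25 and 0.75 in 81 and above 0.75 in 12, and 124 were DEGs. The median position was 0.78 for the genes on the higher side and 0.29 for those on the lower side. The fit of 6 libraries thus held most of the large falls and few of the large rises. Why 2A differed from its replicates was not tested.

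**Figure D5:**
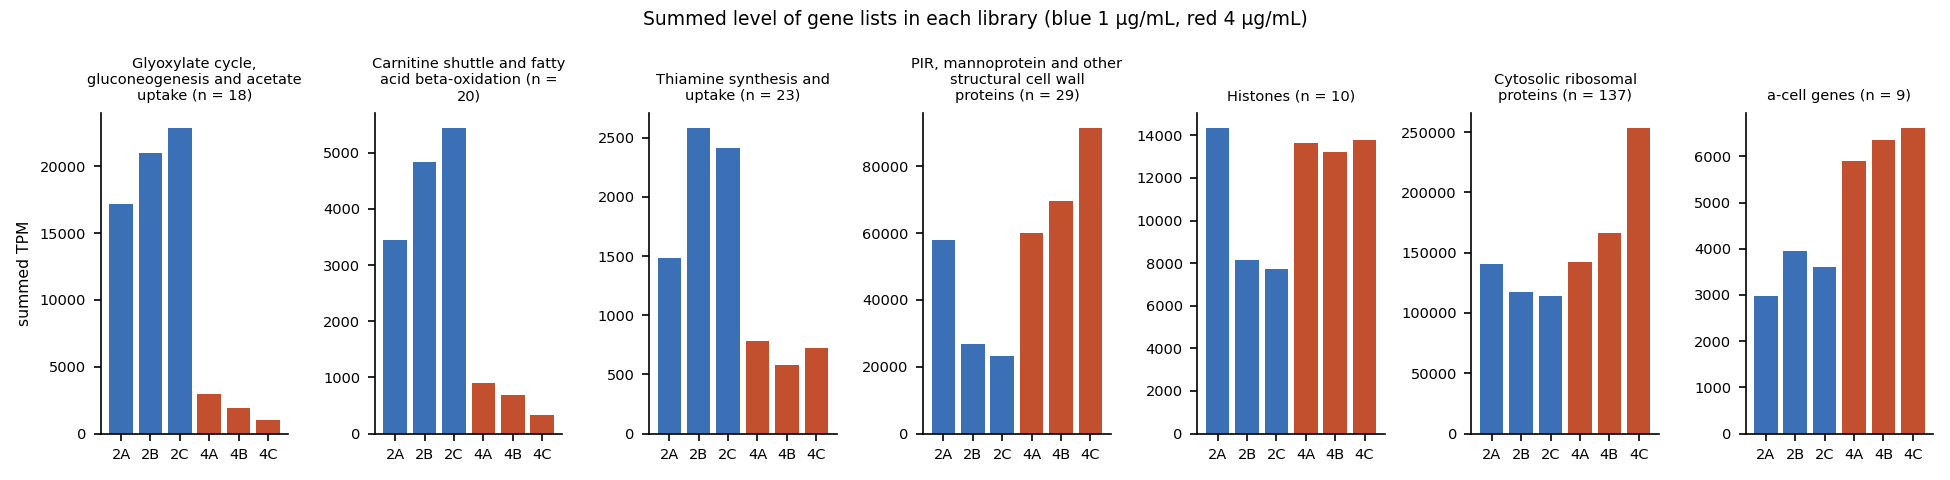
Summed TPM (bars, axes from 0) of 7 gene lists in each library, blue for 1 µg/mL and red for 4 µg/mL. 2A lies with 2B and 2C for the glyoxylate and a-cell lists (17216 and 2979 TPM) and with condition 4 for wall proteins and histones (57824 and 14355 TPM).

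ROX3 and HRP1 were not called with any library left out. ROX3, a subunit of the Mediator complex, had 7691, 3696 and 3302 counts against 4802, 4448 and 4495, and the 95% interval of its log2 fold change, about an estimate of -0.10, is -0.896 to 0.704 (adjusted p = 0.859). HRP1, a factor of mRNA 3′ end formation, had 6560, 4484 and 3816 against 3944, 3639 and 4170 (-0.34 ± 0.25, interval -0.925 to 0.248, adjusted p = 0.361). In both genes 2A was the highest of the 6 libraries. In the fit of 6 libraries none of 74 ribosome biogenesis factors, 21 RNA polymerase I and III subunits or 33 sphingolipid and phosphoinositide enzymes was called by edgeR, with medians of 0.14, 0.24 and 0.11. At an unadjusted p under 0.05 there were 12, 5 and 11, and DESeq2 over the 6 libraries called 5, 2 and 5. Without 2A edgeR called 9 up and 1 down, 3 up and 1 down, and 8 up and 3 down, and without any other single library none. Over the 6 libraries calls were also under the 8.00% of all genes among the vacuolar proton ATPase (1 of 18), protein mannosylation and glycosylation (1 of 37), sterol synthesis (1 of 28), DNA replication (1 of 36), mitochondrial ribosomal proteins (1 of 76), glucan and chitin synthesis (2 of 26) and the cell wall integrity pathway (1 of 23). These counts rested on 2A. Without it, 17 mannosylation and glycosylation genes were up and 1 was down, 7 of the ATPase genes were up, and 10 glucan and chitin synthesis genes were up and 1 was down. The other lists then had 6 up and 2 down for sterol synthesis, 10 up for DNA replication, 18 up and 2 down for mitochondrial ribosomal proteins and 6 up and 6 down for wall integrity, against 15.6% up and 18.9% down of all genes. DESeq2 over the 6 libraries called 14 of the mannosylation and glycosylation genes.

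Mixed or modest calls were seen in the other lists. For comparison, 8.00% of all genes were called over the 6 libraries, and 15.6% were up and 18.9% down without 2A. Of 30 autophagy genes 4 were downregulated (median -0.64), 16 without 2A, 2 without 4A and 0 without 2B, 2C, 4B or 4C. Trehalose and glycogen genes were split, with 3 of 20 up and 4 down (35.0%). That became 3 up and 7 down without 2A, 1 up and 4 down without 4A, 1 down without 2C and none without 2B, 4B or 4C. Polyamine genes had 1 up and 3 down of 15, sulfate and methionine genes 1 up and 2 down of 25, iron uptake genes 3 down of 22 and phosphate genes 1 up and 1 down of 21. Without 2B, 2C or 4B none of these was called, and without 2A the counts were 3 up and 5 down, 5 and 8, 1 and 10, and 4 and 3. Calls rose without 2A over all genes too, so a rise by itself is not particular to these lists. Of 10 genes of ethanol and acetaldehyde oxidation, ADH2 and the acetaldehyde dehydrogenase gene ALD6 were downregulated, and 3 were up and 6 down without 2A.

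A core of 55 DEGs kept the call whichever of the 6 libraries was omitted, 47 of them downregulated and 8 upregulated. All but 1 of these fits kept 2A, whose median position was 0.78 for the large rises and 0.29 for the large falls. A core so defined favours genes in which 2A lies near 2B and 2C, so its few rises follow in part from the rule. Without 2A 45.3% of the DEGs were up. The falls include ADH2, FDH1, ADY2, MLS1, YAT1, DPA10, ICL1, STL1, SPG1, CRC1, YAT2, CIT3, CAT2, CTA1, HXT6, CIT2, HSP30, GDH2, GPX1 and SIP4. The rises were DAK2, HXT3, UTR2, MIG2, DOG2, STB6, PIS1 and COX5B. PIS1, phosphatidylinositol synthase, had 575.9, 516.6 and 577.7 counts in condition 2 and 1556, 1982 and 1743 in condition 4 (1.66 ± 0.15, adjusted p = 0.00186), and 2A lay within the range of its replicates. DOG2, a 2-deoxyglucose-6-phosphate phosphatase, had 375.3, 212.9 and 243.1 against 863.7, 1242 and 1353 (2.06 ± 0.27). FAT3, which takes part in fatty acid uptake, was among the tightest falls, with 3819, 5680 and 6583 against 244.3, 228.6 and 197.9 (-4.58 ± 0.27, adjusted p = 0.000682). Outside the core, ACS1, JEN1, FOX2, NDE2, PUT4 and DIP5 lost the call only without 4B, as did ALD6. IDP2, SFC1, POT1, GUT2, THI73, BAR1, MFA1 and GPX2 lost it without 2B, 2C or 4B, and so did PIP2, CIT1, FUM1, KGD1, CTT1, THI4, EXG2, DDR48, FUS1, AGA1 and AHP1, which lost it without 4C as well. GPP1, TRX3 and AGA2 kept it only on leaving out 2A. DOG2, STB6, PIS1 and FAT3 were named after their values were seen. For every single gene named here the exact two-sided permutation test of 3 against 3 libraries can give no p below 0.1, which all the DEGs named reached.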

How the data were processed

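TruSeq RNA libraries were sequenced single-end, and per the labels the authors trimmed the reads (Trimmomatic 0.39), mapped them to the R64 genome (Bowtie2 2.3.2) and counted them per gene (HTSeq 0.9.0). The deposited values are raw read counts, without normalization, for 6600 features in 12 libraries. Strand and overlap settings of the counting are not given in the sources used here, so overlapping and near-identical genes can share or lose reads. The reference annotation held 5917 of the features. The remaining 683 took between 0.172% and 0.323% of a library's reads.

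Groups came from the library labels, and the 3 flasks of a condition are its replicates. Counts of the 6 libraries were scaled by TMM factors (0.865 to 1.08) and tested with edgeR 4.0.16 (quasi-likelihood F test, R 4.3.3) on 5890 genes, with p-values adjusted over all of them (Benjamini-Hochberg). The authors used DESeq2 over all conditions. Normalised counts are counts divided by the effective library size and multiplied by its mean. SE was obtained by dividing the absolute log2 fold change by the square root of F. TPM used coding lengths of the annotation and log2 CPM a prior count of 2. Variance between replicates exceeded counting error 13.6-fold for 2B with 2C and up to 194-fold (4A with 4C). The tests were tried on simulated data with the same dispersion for all genes and no library apart from its replicates. That trial says nothing about data with a library like 2A. Copies were searched with blastn 2.17.0 against the genome (95% identity, 100 bases). Alternatives were 15 planned fits, DESeq2 1.42.0 and limma-voom (limma 3.58.1) among them, and 2 added after seeing the data. Figures used matplotlib 3.10.9.

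The comparison, the 38 gene lists and the genes named were chosen with earlier results of these data known, so counts within lists are descriptions. Named genes were the 12 largest rises and falls among DEGs whose libraries do not overlap and whose higher mean is at least 50 counts, per list the 3 smallest p and the most expressed member, genes the study names, and the mating type and BY4741 marker genes. Further list members are named as examples.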

Additional observations from a re-analysis of the deposited data

How the results depend on the processing

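The 471 DEGs (130 up, 341 down) depended strongly on the tool and the libraries. DESeq2 over the 6 libraries called 1372 (603 up, 769 down) and over the 12 libraries 1976 (928 up, 1048 down), limma-voom with sample quality weights 3428 (1666 up, 1762 down; weight 0.19 for 2A and 0.265 for 4C), and edgeR over the 12 libraries 1558 (640 up, 918 down). Of the 471 DEGs these held 471, 469, 471 and 467. With 1 library left out the count ran from 56 to 2033, with 8 to 921 up and 48 to 1112 down. In 2 fits chosen after seeing the data, leaving out 2A and 4C together gave 2957 (1429 up, 1528 down) and edgeR over 11 libraries, all but 2A, gave 2529 (1224 up, 1305 down). Library size alone gave 325 DEGs, 135 up and 190 down, so that 41.5% were up against 27.6%, mainly through fewer falls. RLE factors (469), a filter of at least 1 count (468) and filterByExpr (475) stayed close.

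With the replicate number as a block (replicate block) 32 DEGs were left, 3 up and 29 down. Deviations of same-numbered libraries from their condition means correlated at -0.37, 0.259 and -0.259. Those of differently numbered libraries ran from -0.459 to 0.455. With 3 libraries per condition, and 2A and 4C far from their replicates, these values cannot decide whether the numbers pair the samples.

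Of 112 genes recomputed, 3 changed direction, none of them a DEG. ROX3 was estimated at -0.10 and became 0.29 with limma-voom, 0.014 with the replicate block, 0.41 without 2A and 4C and 0.40 over 11 libraries, and ran from -0.313 to 0.39 with 1 library left out. It passed the threshold only without 2A and 4C (adjusted p = 0.0372). HSP12 was estimated at -0.11 and became 0.004 with limma-voom, 0.202 over 11 libraries and -0.305 to 0.187 with 1 library left out. ASG7 was estimated at 0.22 and became -0.052 without 2A and 4C. The cause of these shifts was not tested. Depth limits little here, since replicate scatter exceeded counting error in all 6 pairs, and 3 libraries per condition, 1 of them apart, set the precision.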
